A study of Mus musculus with 9 samples.

Results

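The genes described here are 34 transcripts chosen as markers of endothelial cells or fibroblasts, measured in macrophages sorted from inflamed mouse colon. They are 17 genes typical of endothelial cells (Pecam1, Cdh5, Cldn5, Esam, Tie1, Tek, Ptprb, Eng, Robo4, Ednrb, Emcn, Plvap, Egfl7, Vwf, Sele, Selp and Lyve1) and 17 typical of fibroblasts (Col1a1, Col1a2, Col3a1, Col6a1, Col6a2, Dcn, Lum, Bgn, Pdgfra, Pdgfrb, Sparc, Postn, Mgp, Dpt, Fbln1, Igfbp4 and Fstl1). They were chosen by the cell type they mark, with earlier results of these data known. Each gene is represented by the brightest probe set, by mean over all arrays, whose annotation carries its symbol alone, and 34 of 34 listed genes had such a probe set, out of 22180 genes so represented and 34365 probe sets in all. No filter on dim probe sets was applied, so all 34 entered the test.

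The study asked what loss of ARNT, the obligate partner of the hypoxia-inducible factors HIF-1α and HIF-2α, does to lamina propria macrophages while colitis resolves. The 4 LysMCre;Arntfl/fl mice carried the LysMCre allele and floxed Arnt alleles, and the 5 LysMCre mice carried the same Cre allele with unfloxed Arnt. The floxed Arnt line began on a background that mixed C57BL/6 with another strain. The paper describes its backcrossing to C57BL/6 before the LysMCre cross as sufficient and gives no number of generations. Whether sequence of the other strain remained in the LysMCre;Arntfl/fl mice was not tested. The genotypes shared cages. All mice of both groups drank 3% dextran sodium sulfate (DSS) for 5 days and plain water for another 3, and on Day 8 CD45+ CD11b+ F4/80+ cells were flow-sorted from colon digested with Collagenase/Dispase, with 1 array per mouse. Cre was expressed from the LysM (Lyz2) locus, a gene of myeloid cells, and recombination in endothelial cells or fibroblasts was not analysed here. From 1.5 ng of RNA per mouse, amplified cDNA was hybridized to Affymetrix Mouse Gene arrays, and the values are log2 units after robust multi-array averaging (RMA), in which a difference of 1 is a doubling. Levels are compared between mice for the same probe set and never between genes. The precision of all values is bounded by having 4 and 5 mice.

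Endothelial cells line blood and lymph vessels. They are held together by junction proteins of the cadherin, claudin and immunoglobulin families, are kept quiescent by TIE receptor signaling, and let leukocytes into tissue through selectins. Fibroblasts of the lamina propria build the interstitial matrix from fibrillar collagens, collagen VI and small leucine-rich proteoglycans, and respond to PDGF. Neither cell type carries CD45, the pan-leukocyte marker of the sort. Some of the listed genes are also used by blood cells: Pecam1 and Eng are found on myeloid cells, Selp and Vwf are stored by platelets, and Lyve1 marks lymphatic endothelium and a subset of tissue macrophages.

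The sorted cells carried the markers of the gate. Ptprc (CD45) lay between 12.04 and 12.19 in LysMCre;Arntfl/fl macrophages and between 11.96 and 12.26 in LysMCre macrophages, and Adgre1 (F4/80) lay between 10.82 and 11.12 in LysMCre;Arntfl/fl and between 10.87 and 11.37 in LysMCre macrophages. Itgam (CD11b) lay between 12.13 and 12.42 in LysMCre;Arntfl/fl and between 11.44 and 11.997 in LysMCre macrophages, so that the genotypes overlapped in Ptprc and Adgre1 and did not overlap in Itgam (log2 fold change 0.44, limma adjusted p = 0.160). Every LysMCre;Arntfl/fl array lay above every LysMCre array in 2.52% of all probe sets, and in 2 of 12 listed macrophage genes, of which Itgam was 1. Arnt itself fell to 8.73 ± 0.10 (SD, n = 4) in LysMCre;Arntfl/fl macrophages, against 9.39 ± 0.10 (SD, n = 5) in LysMCre macrophages (log2 fold change -0.66, standard error [SE] 0.09, limma adjusted p = 0.0214 over all probe sets). A probe set was called when its adjusted p was below 0.05 and its fold change above 1.5. Of the 34365 probe sets in the test, 0.143% (49) were called higher and 0.151% (52) lower, and the median log2 fold change was 0.01.

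Promoter sequences show the regulatory letters in front of the genes with the largest estimates on each side. They come from the RefSeq promoter table of the build GRCm38.p6, in which 22 of the 34 genes were matched. For each cell type, the 2 matched genes with the largest log2 fold change in the main direction of their list are shown, each as the 250 bases before its annotated start. Capitals mark ETS cores (AGGAAG or CGGAAG on either strand), the letters read by the ETS factors that drive many endothelial genes, and hypoxia response cores (ACGTG or GCGTG on either strand), the letters read by HIF with ARNT. P-selectin (Selp) has 1 ETS core, which starts 64 bases before the start site, and no hypoxia core. Endomucin (Emcn) has 2 ETS cores, 174 and 93 bases before the start, and 1 hypoxia core 11 bases before it. The Postn window shown, the first of 2 in the table, has 1 ETS core at 228 bases, and the Fbln1 window, also the first of 2, has hypoxia cores at 81, 80 and 52 bases, of which the first pair overlap in a palindrome.
Selp, chr1:164115014-164115263, plus strand: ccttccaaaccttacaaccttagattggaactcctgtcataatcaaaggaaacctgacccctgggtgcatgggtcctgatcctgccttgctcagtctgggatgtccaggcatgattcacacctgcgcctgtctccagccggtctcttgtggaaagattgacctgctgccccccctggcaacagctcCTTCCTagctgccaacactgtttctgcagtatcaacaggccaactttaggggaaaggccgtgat
Emcn, chr3:137340828-137341077, plus strand: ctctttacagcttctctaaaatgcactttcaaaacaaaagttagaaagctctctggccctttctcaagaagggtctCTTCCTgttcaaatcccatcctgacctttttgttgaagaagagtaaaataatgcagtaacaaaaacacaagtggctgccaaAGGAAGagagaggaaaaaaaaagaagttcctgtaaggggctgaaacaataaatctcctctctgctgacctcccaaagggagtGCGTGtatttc
Postn, chr3:54359017-54359266, plus strand: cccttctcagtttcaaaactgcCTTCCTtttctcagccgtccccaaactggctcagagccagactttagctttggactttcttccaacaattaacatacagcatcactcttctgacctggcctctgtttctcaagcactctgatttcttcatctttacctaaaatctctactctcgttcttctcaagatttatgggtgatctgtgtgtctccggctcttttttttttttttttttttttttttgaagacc
Fbln1, chr15:85205699-85205948, plus strand: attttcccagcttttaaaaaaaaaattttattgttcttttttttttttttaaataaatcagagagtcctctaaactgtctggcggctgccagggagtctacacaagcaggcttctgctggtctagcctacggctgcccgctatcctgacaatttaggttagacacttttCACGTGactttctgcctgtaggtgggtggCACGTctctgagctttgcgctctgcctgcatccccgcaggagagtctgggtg

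Over the same 250 bases, an ETS core was present in 8 of 12 promoters of the 10 matched endothelial genes and in 5 of 15 promoters of the 12 matched fibroblast genes, and 39.2% of all 32851 promoters in the table held one. A hypoxia core was present in 2 of the 12 endothelial and 6 of the 15 fibroblast promoters, and in 38.6% of all promoters. A match describes letters and is not a bound site, and the absence of a match concerns this window only.

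In LysMCre;Arntfl/fl macrophages most endothelial genes had a higher mean and most fibroblast genes a lower one, but no gene of either list was called. Among the 17 endothelial genes the log2 fold change was positive in 14 and negative in 3, with a median of 0.53 and a range of -0.38 to 1.20. Among the 17 fibroblast genes it was positive in 2 and negative in 15, with a median of -0.48 and a range of -1.28 to 0.12. Limma called 0 of the 17 endothelial genes, with 7 higher and 1 lower at an unadjusted p below 0.05, and 0 of the 17 fibroblast genes, with 0 higher and 4 lower. Over all probe sets, 5.72% were higher and 5.79% lower at that unadjusted p. An unpaired test with equal variances on each probe set, which the study's methods name for single comparisons, also called 0 and 0 after Benjamini-Hochberg adjustment. The limma adjusted p lay between 0.244 and 0.954 for the endothelial and between 0.228 and 0.976 for the fibroblast genes. In 0 of the 34 genes did all 4 LysMCre;Arntfl/fl arrays lie on 1 side of all 5 LysMCre arrays, whereas 2.52% of all probe sets had them all above and 2.22% all below.

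**Figure D1:**
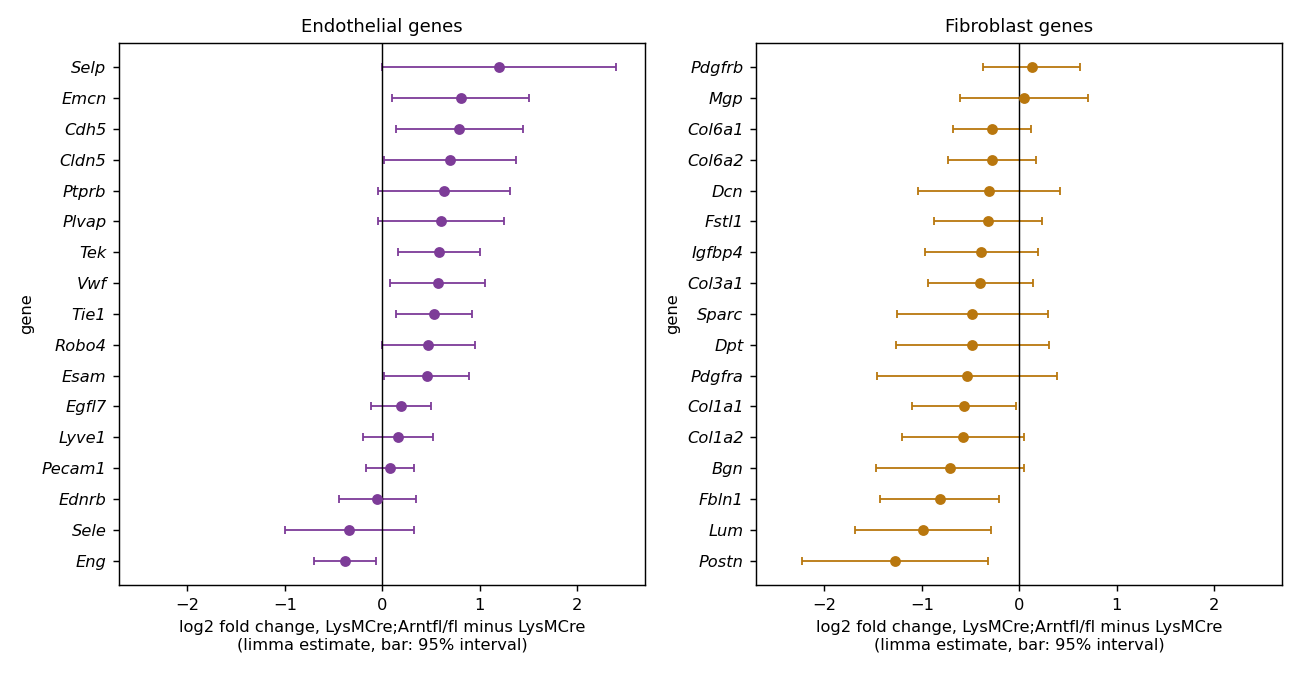
Log2 fold change of LysMCre;Arntfl/fl over LysMCre macrophages for 17 endothelial (left) and 17 fibroblast genes (right), as the limma estimate with its 95% interval, ordered by size. Endothelial estimates run up to 1.20 (Selp) and fibroblast estimates down to -1.28 (Postn), and no gene passed the test adjusted over all probe sets.

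The endothelial difference leaned on 1 mouse and the fibroblast difference on another. LysMCre;Arntfl/fl replicate 3 had the highest value of its genotype in 16 of 17 endothelial genes, and without it the median endothelial log2 fold change was 0.29. LysMCre;Arntfl/fl replicate 4 had the lowest value of its genotype in 17 of 17 fibroblast genes, and without it the median fibroblast log2 fold change was -0.18. In both fits the split of signs stayed as it was, 14 positive and 3 negative for the endothelial and 2 positive and 15 negative for the fibroblast genes. In sorted bulk RNA, the number of endothelial or fibroblast cells in a sample and the amount of their RNA per cell cannot be told apart. Nor can either be told apart from expression of a listed gene by the macrophages themselves.

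Neutrophil genes had positive estimates as well. All 11 of the 11 listed neutrophil genes were on the positive side (median log2 fold change 1.44), Ngp was called (log2 fold change 3.45, limma adjusted p = 0.0330), and the mean of the 11 ran from 9.39 to 10.07 in LysMCre;Arntfl/fl and from 7.78 to 9.05 in LysMCre arrays. With that mean as a covariate, the median log2 fold change of the endothelial genes was -0.23, with 4 positive and 13 negative, and that of the fibroblast genes -0.06, with 6 positive and 11 negative. At an unadjusted p below 0.05, 0 endothelial genes were then higher and 1, Selp, was lower, and 0 fibroblast genes passed in either direction. Over all probe sets, 3.86% were higher and 4.12% lower at that p in the same fit, so these counts of members were near the share of the whole table. The neutrophil mean did not overlap between the genotypes, so the covariate and the genotype cannot be fully told apart, and the part of neutrophils in the result was not tested.

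**Figure D2:**
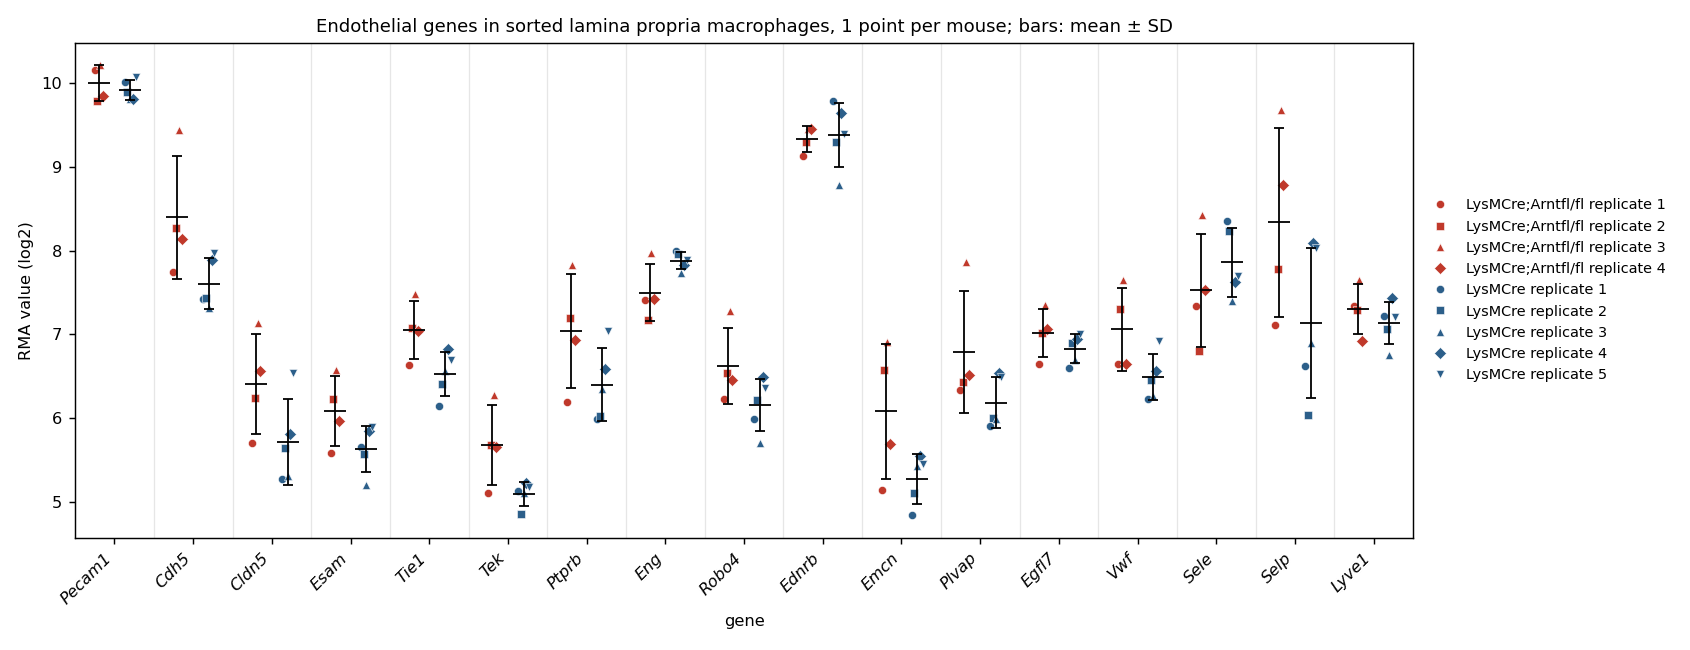
RMA values (log2) of the 17 endothelial genes, 1 point per mouse, with LysMCre;Arntfl/fl left of LysMCre for each gene and bars for the mean ± SD. The upward triangle of LysMCre;Arntfl/fl replicate 3 is the top point of its genotype in 16 of 17 genes, and the genotypes overlap in every gene.

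Among the junction genes, VE-cadherin (Cdh5), the adhesion molecule that defines endothelial contacts, was 7.74, 8.27, 9.44 and 8.14 in LysMCre;Arntfl/fl macrophages (replicates 1 to 4) and 7.42, 7.43, 7.32, 7.89 and 7.97 in LysMCre macrophages (replicates 1 to 5). The mean was 8.40 ± 0.73 in LysMCre;Arntfl/fl and 7.61 ± 0.30 in LysMCre macrophages (SD, n = 4 and 5), so that the level was 1.73-fold higher (log2 fold change 0.79, SE 0.29, limma adjusted p = 0.317). LysMCre;Arntfl/fl replicates 2, 3 and 4 lay above every LysMCre array, and replicate 1 lay among them. The tight junction protein claudin-5 (Cldn5) was 5.70, 6.24, 7.14 and 6.56 in LysMCre;Arntfl/fl and 5.27, 5.64, 5.31, 5.81 and 6.54 in LysMCre macrophages, so that LysMCre replicate 5 lay above LysMCre;Arntfl/fl replicates 1 and 2 and just below replicate 4 (log2 fold change 0.69, limma adjusted p = 0.418). The junctional molecule ESAM (Esam) had a log2 fold change of 0.46 (limma adjusted p = 0.406). PECAM-1 (Pecam1), which leukocytes share, had the estimate nearest 0 of the junction genes: it was 9.996 ± 0.214 in LysMCre;Arntfl/fl and 9.92 ± 0.12 in LysMCre macrophages (SD, n = 4 and 5), with a 95% interval of the log2 fold change of -0.17 to 0.33.

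The TIE receptor genes Tek and Tie1 had the smallest adjusted p of the endothelial list, and Tek was dimmer than the median probe set. Tek (TIE2), the receptor for angiopoietins, was 5.11, 5.69, 6.28 and 5.66 in LysMCre;Arntfl/fl macrophages, against 5.13, 4.86, 5.10, 5.23 and 5.18 in LysMCre macrophages. Again 3 of 4 LysMCre;Arntfl/fl arrays exceeded all LysMCre arrays, which stood within 0.37 log2 units of each other, and replicate 1 did not (log2 fold change 0.58, SE 0.19, limma adjusted p = 0.244). Its partner Tie1 was 6.64, 7.07, 7.49 and 7.04 in LysMCre;Arntfl/fl and 6.15, 6.40, 6.57, 6.82 and 6.70 in LysMCre macrophages, with the same 3 arrays on top (log2 fold change 0.53, SE 0.18, limma adjusted p = 0.249). Cdh5, Tie1 and Tek were the 3 endothelial genes that were higher at an unadjusted p below 0.05 in each of the 9 fits without 1 array, a tally added after the values were seen. In those fits between 3 and 12 endothelial genes were higher at that p, with 3 without LysMCre;Arntfl/fl replicate 3 or LysMCre replicate 1, 4 without LysMCre replicate 2 or 3, and 12 without LysMCre;Arntfl/fl replicate 1. Over all probe sets, between 4.77% and 5.73% were higher at that p in the same fits.

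Ptprb (VE-PTP), the phosphatase that restrains TIE2 and VE-cadherin signaling, had a log2 fold change of 0.64 (95% interval -0.04 to 1.31), and Robo4, an endothelial guidance receptor that stabilizes vessels, one of 0.47 (-0.01 to 0.95). Endoglin (Eng), a co-receptor for TGF-β family ligands, ran the other way. It was 7.41, 7.17, 7.97 and 7.43 in LysMCre;Arntfl/fl macrophages and 7.99, 7.96, 7.73, 7.83 and 7.88 in LysMCre macrophages, so that replicates 1, 2 and 4 of LysMCre;Arntfl/fl lay below all LysMCre arrays and replicate 3 was among the highest (log2 fold change -0.38, SE 0.14, limma adjusted p = 0.319). The endothelin receptor gene Ednrb had a log2 fold change of -0.05 with a 95% interval of -0.44 to 0.34.

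Of the surface and secreted genes, endomucin (Emcn), a sialomucin of capillary and venous endothelium, was 5.15, 6.57, 6.92 and 5.69 in LysMCre;Arntfl/fl macrophages and 4.84, 5.11, 5.43, 5.56 and 5.46 in LysMCre macrophages (log2 fold change 0.80, SE 0.32, limma adjusted p = 0.352). Replicates 2, 3 and 4 lay above all LysMCre arrays, the last of them narrowly. Von Willebrand factor (Vwf), the platelet-tethering glycoprotein, had a log2 fold change of 0.57 (limma adjusted p = 0.336). Plvap, which forms the diaphragms of fenestrated capillaries, had one of 0.60 (limma adjusted p = 0.476), and its mean leaned on a single array, since LysMCre;Arntfl/fl replicate 3 stood at 7.87 and the others of that genotype at 6.33, 6.43 and 6.52. The secreted factor gene Egfl7 had a log2 fold change of 0.19 (limma adjusted p = 0.683), although 3 of 4 LysMCre;Arntfl/fl arrays exceeded all LysMCre arrays.

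The selectin genes had opposite signs. Selp, which leukocytes use to roll on inflamed vessels, had the largest positive estimate and also the largest spread of the endothelial list, with 7.11, 7.78, 9.67 and 8.78 in LysMCre;Arntfl/fl macrophages and 6.63, 6.04, 6.90, 8.09 and 8.03 in LysMCre macrophages (log2 fold change 1.20, SE 0.55, limma adjusted p = 0.439). LysMCre replicates 4 and 5 lay above LysMCre;Arntfl/fl replicates 1 and 2. E-selectin (Sele), which cytokines induce on activated endothelium, was 7.34, 6.81, 8.42 and 7.53 in LysMCre;Arntfl/fl and 8.35, 8.24, 7.40, 7.63 and 7.69 in LysMCre macrophages, a log2 fold change of -0.34 (95% interval -0.998 to 0.322). Lyve1, the hyaluronan receptor, had one of 0.16 (95% interval -0.20 to 0.52).

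**Figure D3:**
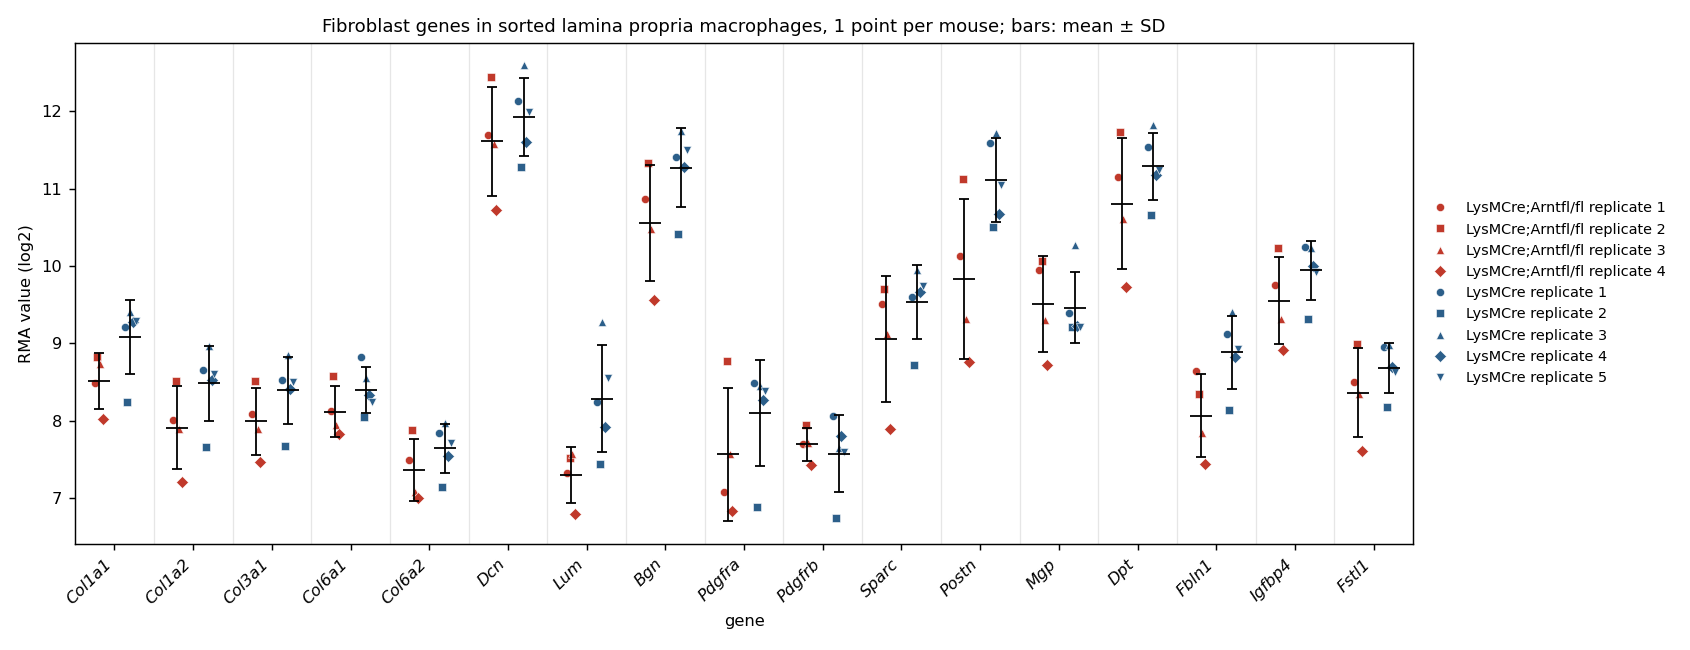
RMA values (log2) of the 17 fibroblast genes, 1 point per mouse, with LysMCre;Arntfl/fl left of LysMCre for each gene and bars for the mean ± SD. LysMCre;Arntfl/fl replicate 4 (diamond) and LysMCre replicate 2 (square) are the lowest points of their genotypes in 17 of 17 genes.

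The matrix genes of the fibroblasts differed most in 3 secreted proteins. Periostin (Postn), a matricellular protein of wound repair, was 10.13, 11.13, 9.32 and 8.76 in LysMCre;Arntfl/fl macrophages and 11.60, 10.51, 11.72, 10.68 and 11.05 in LysMCre macrophages. It averaged 9.83 ± 1.03 in LysMCre;Arntfl/fl and 11.11 ± 0.54 in LysMCre macrophages (SD, n = 4 and 5), a 2.42-fold lower level (log2 fold change -1.28, SE 0.43, limma adjusted p = 0.259). LysMCre;Arntfl/fl replicates 1, 3 and 4 lay below all LysMCre arrays, and replicate 2 lay among the higher ones. Fibulin-1 (Fbln1), a glycoprotein of elastic fibres and basement membranes, was 8.64, 8.35, 7.84 and 7.44 in LysMCre;Arntfl/fl and 9.13, 8.14, 9.41, 8.82 and 8.93 in LysMCre macrophages (log2 fold change -0.82, SE 0.28, limma adjusted p = 0.262), and LysMCre replicate 2 was the array that overlapped.

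Of the small leucine-rich proteoglycans, which space collagen fibrils, lumican (Lum) had the smallest adjusted p of all 34 genes. It was 7.33, 7.51, 7.57 and 6.79 in LysMCre;Arntfl/fl macrophages and 8.25, 7.44, 9.27, 7.92 and 8.56 in LysMCre macrophages (log2 fold change -0.99, SE 0.32, limma adjusted p = 0.228), and again LysMCre replicate 2 alone reached into the other genotype. Biglycan (Bgn) was 10.86, 11.33, 10.48 and 9.57 in LysMCre;Arntfl/fl and 11.41, 10.41, 11.75, 11.28 and 11.51 in LysMCre macrophages (log2 fold change -0.71, 95% interval -1.47 to 0.05). Bgn has 2 probe sets of its own, and with the median of both the log2 fold change was -0.37. Decorin (Dcn), also a modulator of TGF-β, had a log2 fold change of -0.31 (95% interval -1.04 to 0.41). Lum, Postn and Fbln1 were the 3 fibroblast genes that were lower at an unadjusted p below 0.05 in each of the 9 fits without 1 array, again a tally added after the values were seen. In those fits between 3 and 13 fibroblast genes were lower at that p, with 13 when LysMCre;Arntfl/fl replicate 2 was left out and 9 when LysMCre replicate 2 was, while between 4.84% and 5.98% of all probe sets were lower.

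All 5 collagen chains of the fibroblast list had negative estimates, while collagen chains among the other fibroblast and matrix genes had estimates of both signs. Col1a1, a chain of collagen I, was 8.49, 8.82, 8.74 and 8.02 in LysMCre;Arntfl/fl and 9.21, 8.24, 9.41, 9.28 and 9.28 in LysMCre macrophages (log2 fold change -0.57, SE 0.24, limma adjusted p = 0.402). Apart from LysMCre replicate 2, each LysMCre array was above each LysMCre;Arntfl/fl array. Its partner chain Col1a2 had a log2 fold change of -0.58 and Col3a1, the chain of collagen III, one of -0.40, and the collagen VI chains Col6a1 and Col6a2 each had one of -0.28. The 95% intervals of these last 4 chains included 0, and were for example -1.20 to 0.05 for Col1a2 and -0.68 to 0.12 for Col6a1. Col1a2 and Col6a1 also have 2 probe sets each, and with the median of both their log2 fold changes were -0.37 and -0.11.

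The PDGF receptors, which carry the main growth signal of fibroblasts and pericytes, did not share a sign. Pdgfra was 7.08, 8.77, 7.57 and 6.84 in LysMCre;Arntfl/fl macrophages, with replicate 2 above every LysMCre array, and 8.50, 6.89, 8.45, 8.27 and 8.39 in LysMCre macrophages (log2 fold change -0.53, 95% interval -1.46 to 0.39). Pdgfrb was 7.70 ± 0.21 in LysMCre;Arntfl/fl and 7.57 ± 0.50 in LysMCre macrophages (SD, n = 4 and 5), a log2 fold change of 0.12 (95% interval -0.38 to 0.63), which was -0.08 without LysMCre replicate 2. The other exception was Mgp, the matrix Gla protein that inhibits calcification. It was 9.96, 10.06, 9.31 and 8.72 in LysMCre;Arntfl/fl and 9.40, 9.22, 10.27, 9.22 and 9.22 in LysMCre macrophages (log2 fold change 0.05, 95% interval -0.61 to 0.70), and its estimate was between -0.14 and 0.31 without 1 array.

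The remaining secreted genes were Sparc, a collagen-binding glycoprotein (log2 fold change -0.48), dermatopontin (Dpt, -0.48), the IGF-binding protein gene Igfbp4 (-0.39) and the follistatin-like gene Fstl1 (-0.32). For these 4 genes the adjusted p from limma lay between 0.641 and 0.708. In each of them LysMCre;Arntfl/fl replicate 2 was above and replicate 4 below the mean of LysMCre, so that the difference between 2 mice of 1 genotype exceeded the difference between genotypes.

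Both lists varied more between mice of 1 genotype than most probe sets did. The standard deviation within genotypes had a median of 0.381 over the endothelial and 0.510 over the fibroblast genes, against 0.173 over all probe sets, and 16 of 17 and 17 of 17 genes were above that value, with Pecam1 as the exception. Such a spread was not particular to these lists. The same median was 0.990 over the epithelial, 0.810 over the neutrophil, 0.457 over the lymphocyte and 0.387 over the adipocyte genes. In the remaining lists it lay between 0.109 (mesothelium) and 0.300 (other fibroblast and matrix genes). Averaged over the list, the endothelial genes were at 6.85, 7.22, 7.95 and 7.21 in LysMCre;Arntfl/fl replicates 1 to 4 and at 6.78, 6.77, 6.67, 7.10 and 7.17 in LysMCre replicates 1 to 5. The fibroblast genes were at 8.97, 9.44, 8.73 and 8.12 in LysMCre;Arntfl/fl and at 9.52, 8.61, 9.76, 9.25 and 9.36 in LysMCre arrays. LysMCre;Arntfl/fl replicate 3 had the highest endothelial mean and replicate 4 the lowest fibroblast mean of the 9 arrays, and LysMCre replicate 3 had both the lowest endothelial and the highest fibroblast mean.

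**Figure D4:**
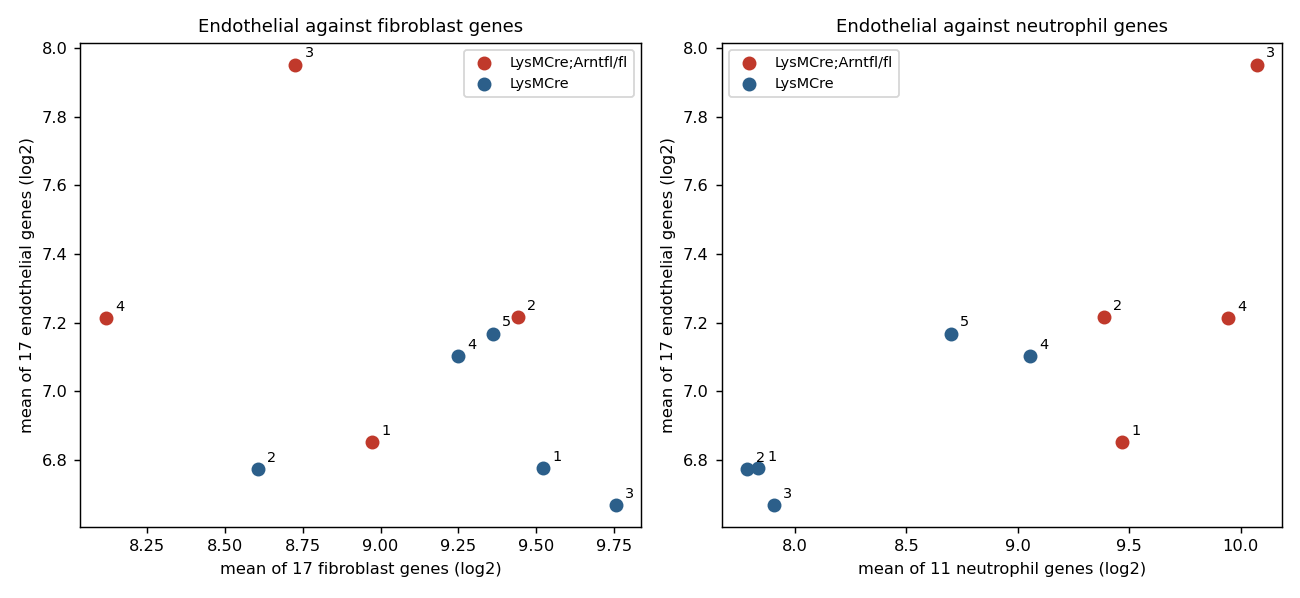
Mean of the 17 endothelial genes on each array (vertical, log2) against the mean of the 17 fibroblast genes (left) and of 11 neutrophil genes (right), with the replicate number beside each point. Over the 9 arrays r was -0.369 for the left and 0.771 for the right panel, with LysMCre;Arntfl/fl replicate 3 at the top of the right panel on both axes.

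Within each list the genes varied together from mouse to mouse, whereas the lists did not. These correlations are Pearson's r over 9 arrays after the mean of each genotype was subtracted, and they are given as a description, since all genes share the same arrays and their RNA yield and amplification. Among the 136 pairs of fibroblast genes the median r was 0.848 and 136 were above 0, and among the 136 pairs of endothelial genes it was 0.691 and 134 were above 0. Among the 289 pairs of 1 endothelial and 1 fibroblast gene it was -0.102, 103 were above 0, and the highest was 0.495. The counts of genes passing an unadjusted p are therefore not counts of independent genes.

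**Figure D5:**
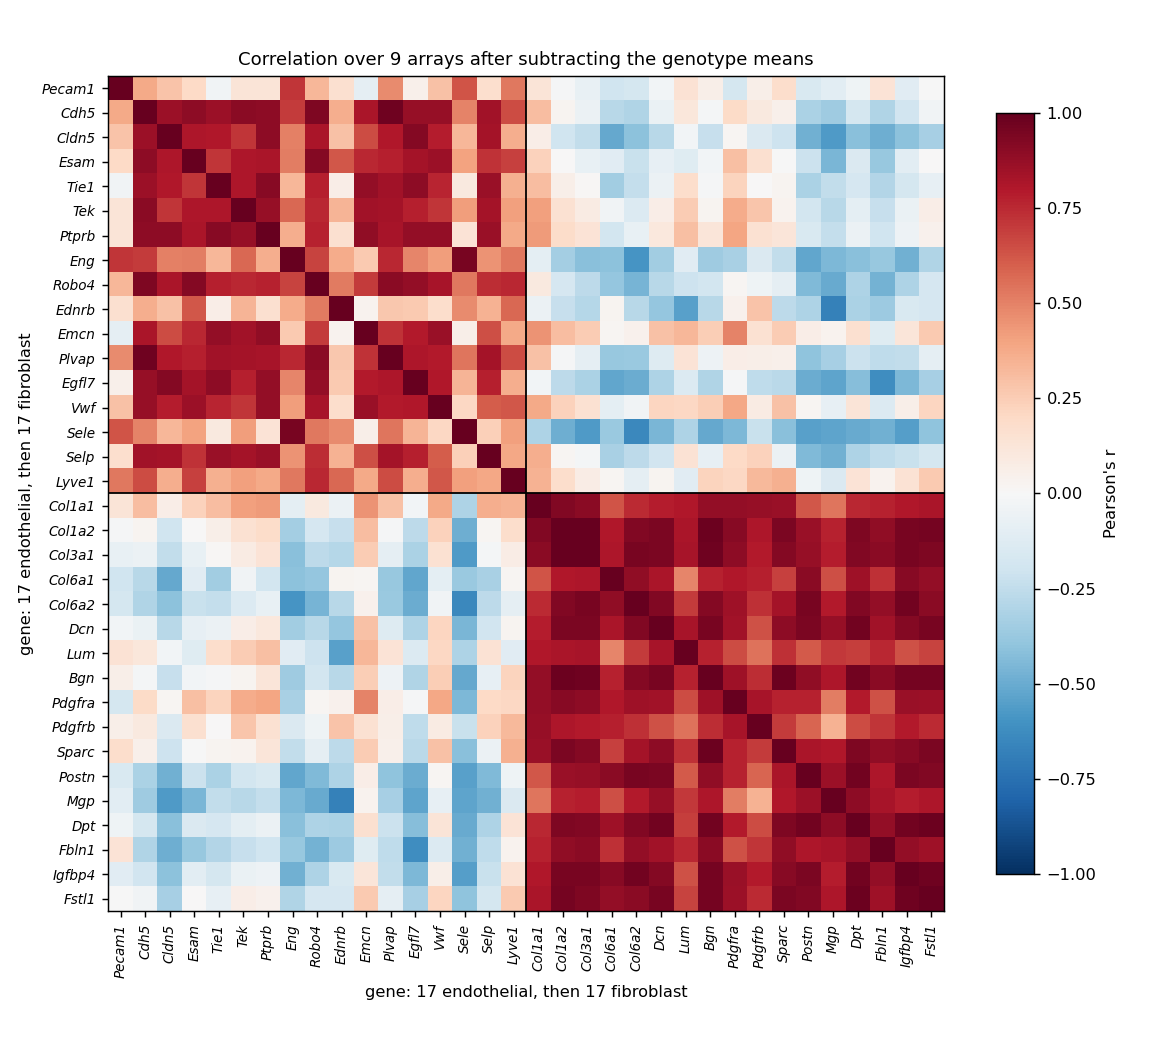
Pearson's r over 9 arrays, after subtracting genotype means, for all pairs of the 34 genes, with endothelial genes first and a black line between the lists. The fibroblast block is uniformly positive (median r 0.848), the endothelial block is positive with weaker rows for Pecam1, Ednrb, Sele, Eng and Lyve1 (median 0.691), and the pairs across the lists centre near 0 (median -0.102).

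Cdh5 followed the rest of the endothelial list most closely, with r = 0.992 to the mean of the other 16 genes, and Plvap (0.945), Robo4 (0.935) and Esam (0.902) came next. The genes least like the rest were Pecam1 (0.315), Ednrb (0.372), Sele (0.412), Lyve1 (0.595) and Eng (0.65). Of these, Eng and Sele varied together across mice (r = 0.947), Pecam1 followed both in part (r = 0.716 with Eng and 0.629 with Sele), and Sele and Selp had little in common (r = 0.241). Eng and Sele both had negative estimates. In the fibroblast list, Col1a2 (0.988), Col3a1 (0.985) and Bgn (0.981) were closest to the mean of the other 16, and Pdgfrb (0.751), Lum (0.76) and Mgp (0.805) were the least close. Col1a2 and Col3a1 gave the highest correlation of any pair (r = 0.993), and Pdgfrb with Mgp the lowest within the fibroblast list (r = 0.348).

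The list means were compared in the same way. The endothelial and fibroblast means had r = -0.369 and Spearman's rho = -0.35 over the 9 arrays, r = -0.0521 without the 2 arrays farthest from the median of the endothelial mean, and r = -0.134 after the genotype means were subtracted. The endothelial and neutrophil means had r = 0.771 and rho = 0.8, r = 0.706 without those 2 arrays, and r = 0.69 after the genotype means were subtracted, with r = 0.744 within the 4 LysMCre;Arntfl/fl and 0.914 within the 5 LysMCre arrays. For the endothelial and epithelial means r was 0.114 and rho -0.0167, with r = 0.648 without those 2 arrays and 0.0498 after the genotype means were subtracted. For the fibroblast and neutrophil means r was -0.52 and rho -0.433, with r = -0.871 without the 2 arrays farthest from the median of the fibroblast mean and -0.223 after the genotype means were subtracted, and with -0.772 within the 4 LysMCre;Arntfl/fl and 0.0602 within the 5 LysMCre arrays. These last 2 relations therefore depended on which arrays were included. Points of 1 array share its RNA and amplification, and no p is given for these values.

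Further genes of both cell types leaned the same way as the lists. Of 24 other endothelial genes 23 were measured, of which the log2 fold change was positive in 18 and negative in 5 (median 0.17), with 0 called by limma and 6 higher and 1 lower at an unadjusted p below 0.05. The VEGF receptor genes Kdr (0.74, limma adjusted p = 0.206) and Flt1 (0.65, limma adjusted p = 0.320), the adhesion receptor gene Adgrl4 (0.73, limma adjusted p = 0.208) and the chemokine-scavenging receptor gene Ackr1 (0.63, limma adjusted p = 0.150) of venules had the largest estimates. Adgrl4 (mean 5.57 in LysMCre;Arntfl/fl and 4.84 in LysMCre) and Ackr1 (5.48 and 4.85) were dim, below the array medians of 5.98 to 6.04. Of 25 other fibroblast and matrix genes 23 were measured, of which it was positive in 6 and negative in 17 (median -0.21), with 0 called and 0 higher and 6 lower at an unadjusted p below 0.05. Over all probe sets, 5.72% were higher and 5.79% lower at that p. Osteoglycin (Ogn, -1.32), the procollagen C-proteinase enhancer gene Pcolce (-0.98) and Col12a1 (-0.98) were the most negative, and Pi16, a marker of adventitial fibroblasts, had 0.69. The means of these lists tracked those of the 17 genes each (r = 0.949 for the endothelial and 0.985 for the fibroblast lists over 9 arrays, and 0.859 and 0.957 without the 2 farthest).

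A search for similar patterns covered 20589 probe sets with a symbol of their own. Members, predicted genes (symbols of Gm and a digit) and RIKEN genes (symbols ending in Rik) were left out of it. Those most like the endothelial mean after subtraction of the genotype means were Bcl6b (r = 0.992), Cyyr1 (0.972), Ace (0.959), Cds2 (0.955) and 4 probe sets of Sly (0.948), over 9 arrays. Those most like the fibroblast mean were Ogn (0.992), Lamb1 (0.99), Cald1 (0.985), Efemp1 (0.979), Col12a1 (0.976), Srpx2 (0.976), Vmn1r178 (0.975) and Bmp5 (0.975). Sly is a Y-linked gene of male germ cells and Vmn1r178 a vomeronasal receptor gene, so a high r in this search, over so many probe sets and 9 arrays, occurred also for genes with no known place in these cells.

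Genes of the other cell types that a digested colon holds differed from list to list. The 12 genes of mural cells, which wrap vessels, had 4 positive and 8 negative estimates (median -0.11), and their mean lay between 6.63 and 6.89 in LysMCre;Arntfl/fl and between 6.61 and 6.996 in LysMCre arrays (r = 0.242 and rho = 0.333 with the endothelial mean over 9 arrays, and r = 0.637 without the 2 farthest). Of 11 platelet genes 8 were measured, with 4 positive and 4 negative and a median of 0.03, and Ppbp, a platelet chemokine, had 0.92 (limma adjusted p = 0.449). Of 6 adipocyte genes 5 were measured, with 4 positive and 1 negative and a median of 0.81. Limma called 2 of them higher, Car3 (1.86, limma adjusted p = 0.0169) and Fabp4 (1.80, limma adjusted p = 0.0330), against 0.143% of all probe sets. The adipocyte mean ran from 6.99 to 7.38 in LysMCre;Arntfl/fl and from 6.08 to 6.585 in LysMCre arrays, without overlap. With the endothelial mean it had r = 0.666 and rho = 0.783 over 9 arrays. That r was 0.448 without the 2 farthest and 0.503 after the genotype means were subtracted. Fabp4 is also used by capillary endothelium and macrophages, and the part of adipocytes or of these cells in the endothelial result was not tested. The 15 epithelial genes had 11 positive and 4 negative values (median 0.29), and their mean ran from 8.11 to 8.77 in LysMCre;Arntfl/fl and from 6.98 to 9.47 in LysMCre arrays. With that mean as a covariate the medians were 0.499 for the endothelial and -0.495 for the fibroblast genes. The 12 macrophage genes had 5 positive and 7 negative values (median -0.08), with 0 called. At an unadjusted limma p below 0.05, 2 of the 12 were higher and 3 lower, against 5.72% and 5.79% of all probe sets. Besides Itgam, the complement genes C1qa (-0.56), C1qc (-0.52) and C1qb (-0.43) had the largest estimates of that list, with a limma adjusted p between 0.206 and 0.311.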

How the data were processed

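The deposited values were log2 intensities that the authors made with Expression Console at default settings and RMA (background correction, quantile normalization and 1 summary per probe set), and that they analysed in Partek (version 6.6 in the submitters' processing notes) and with SAM. Neither the annotation release nor filtering of probe sets is given in the sources used here. The 9 arrays were separate mice, 4 LysMCre;Arntfl/fl and 5 LysMCre, each with 34365 values between 2.26 and 14.27, array medians of 5.98 to 6.04 and pairwise correlations of 0.976 to 0.990, and no pair was identical. The files give no scan dates or other batches. Symbols came from the platform annotation: 23521 probe sets carried 1, 1820 several and 9024 none, and probe sets with several were tested but assigned to no gene.

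A linear model without covariates was fitted to every probe set (limma 3.58.1, R 4.3.3), with LysMCre;Arntfl/fl minus LysMCre as the contrast and moderated variances. P-values were adjusted by Benjamini-Hochberg over the whole table, and a call needed an adjusted p under 0.05 with more than a 1.5-fold change. SAM was not rebuilt. The test was checked on simulated data in which probe sets varied independently, unlike the genes of these lists, which varied together. Lists got counts, medians and correlations without p. The genes named are all 34, at most 4 of each of 12 other lists with the largest size of log2 fold change, the 8 probe sets most like each list's mean (members, predicted and RIKEN genes left out) and, outside that rule, Arnt and the gate markers Ptprc and Adgre1. The other lists were further endothelial genes, further fibroblast and matrix genes, mural cells, platelets and megakaryocytes, epithelial cells, neutrophils, lymphocytes, mast cells, enteric glia, mesothelium, adipocytes and macrophages. Members and lists were chosen with earlier results of these data known, so their directions are not independent evidence. Other settings tried were robust variances, a variance trend, weights for arrays, an unpaired test, other thresholds, median centring, a further quantile normalization, a filter on dim probe sets, other choices of probe sets, a replicate block, epithelial or neutrophil covariates, and leaving out each array. Promoter letters came from RefSeq (GRCm38.p6).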

Additional observations from a re-analysis of the deposited data

Results flagged for a closer look

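The 34 genes and the 2 list means, each in both genotypes, gave 72 groups of 4 or 5 arrays, and in 5 of them, all of single genes, 1 array stood far from the others of its genotype, and chance alone gives about 1 in 20 such groups. Plvap was at 7.87 in LysMCre;Arntfl/fl replicate 3, and the nearest array of that genotype was at 6.52. LysMCre replicate 2 was the low array in 3 fibroblast genes, with 8.24 for Col1a1 (nearest 9.21), 6.89 for Pdgfra (nearest 8.27) and 8.73 for Sparc (nearest 9.61). Mgp was at 10.27 in LysMCre replicate 3, and the nearest LysMCre array was at 9.40.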

How the results depend on the processing

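Limma called 0 endothelial and 0 fibroblast genes under each alternative, also in every fit without 1 array, while the unpaired test called 3 endothelial (2 higher, 1 lower) and 3 fibroblast genes (all lower) at an unadjusted p below 0.05, where it called 1946 of all 34365 probe sets higher and 1753 lower. Over all probe sets the adjusted calls, 101 here, depended on the setting: 167 with array weights, 303 at an adjusted p below 0.1, 204 among the brighter probe sets, 6 with the unpaired test after adjustment, 5 with the replicate block, 0 with the neutrophil covariate, and 1 to 149 without 1 array. The numbering of replicates showed no pairing (correlations of same-numbered arrays after subtracting genotype means of -0.12, -0.0715, -0.000463 and 0.166), and with the replicate block the medians were 0.57 and -0.43, with 0 and 0 called. Without 1 array, the median ran from 0.29 to 0.67 for the endothelial and from -0.67 to -0.18 for the fibroblast genes, and the genes at an unadjusted p below 0.05 numbered 3 to 12 (higher, endothelial) and 3 to 13 (lower, fibroblast). With the neutrophil covariate these numbers were 0 and 0, the endothelial median was -0.23, and the sign changed in Cdh5 (-0.22), Cldn5 (-0.45), Esam (-0.13), Tie1 (-0.12), Ptprb (-0.41), Robo4 (-0.29), Plvap (-0.47), Egfl7 (-0.23), Selp (-1.41), Lyve1 (-0.22), Pdgfrb (-0.060), Col6a1 (0.13), Col6a2 (0.061), Dcn (0.33), Dpt (0.21) and Fstl1 (0.032). Mgp changed sign with array weights (-0.10) and the replicate block (-0.015). Without 1 array, Mgp ran from -0.14 to 0.31, Ednrb from -0.199 to 0.051 and Pdgfrb from -0.083 to 0.248. The cause of these changes was not tested. No other value of a gene changed sign under the alternatives, and of 34 genes 14 endothelial and 17 fibroblast ones were brighter than the median probe set. The endothelial genes below it were Esam, Tek and Emcn.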

Other observations

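Genes of 4 further cell types of the gut wall gave small or mixed values. Of 12 lymphocyte genes 10 were measured, with 4 positive and 6 negative log2 fold changes and a median of -0.03, and the plasma cell gene Mzb1 (-0.62, limma adjusted p = 0.474) and Cd4 (-0.59, limma adjusted p = 0.271) had the most negative ones. The 6 mast cell genes had 5 positive and 1 negative (median 0.08), led by the mast cell carboxypeptidase gene Cpa3 (0.78, limma adjusted p = 0.311), and LysMCre;Arntfl/fl replicate 3, the array highest in endothelial genes, also had the highest mast cell mean of the 9 arrays (5.43, against 4.92 to 5.01 in the other LysMCre;Arntfl/fl and 4.80 to 5.00 in the LysMCre arrays). Of 6 enteric glia genes 4 were measured, with a median of 0.06, and the 4 mesothelial genes had 2 positive and 2 negative values.

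Within the fibroblast list, the 2 arrays of LysMCre;Arntfl/fl that differed most, replicates 2 and 4, were 9.44 and 8.12 on average, and the 2 LysMCre arrays that differed most, replicates 3 and 2, were 9.76 and 8.61. The difference of the genotype means was -0.49. Over LysMCre replicates 1 to 5 the neutrophil mean was 7.83, 7.78, 7.91, 9.05 and 8.699, beside an endothelial mean of 6.78, 6.77, 6.67, 7.10 and 7.17 on the same arrays.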
